A study of Mus musculus with 16 samples.

Results

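The transcripts of 9 genes of the JAK-STAT pathway were followed in engrafted brain macrophages and host microglia: the transcription factors Stat2, Stat3, Stat5a, Stat5b and Stat6, the inhibitors Socs1, Socs3 and Cish, and the kinase Jak2. They were found by gene symbol among the 24411 genes of the deposited exon count table, and each of the 9 was present there once. Bone marrow chimeras were made from C57BL/6J WT mice that received 950 cGy of irradiation at 6 weeks of age and then bone marrow of congenic WT donors carrying CD45.1. From the brain of each of 8 mice, Ly6C/G-negative CD11b+ cells were sorted into a CD45.1lo graft population and a CD45.2lo host population, 10000 cells for each library, and RNA was sequenced from both, giving 16 libraries in 4 groups of 4. Mice 1 to 4 had received a peripheral injection of 2.5 mg/kg lipopolysaccharide (LPS) 12 h before sorting. LPS is a bacterial cell wall component that provokes systemic inflammation. Mice 5 to 8 were unchallenged controls. The study describes 9 months between transplantation and sorting, whereas the labels allow 3.5 or 9 months without assigning either to a library. All groups share the irradiated recipient. Host cells were irradiated and graft cells were not, so origin and exposure to irradiation cannot be told apart between them.

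Cytokines such as interleukin-6, the interferons, interleukin-4 and granulocyte-macrophage colony-stimulating factor bind receptors that carry Janus kinases (JAKs) on their inner side. The kinases phosphorylate STAT proteins, which pair up, enter the nucleus and bind DNA: STAT3 downstream of interleukin-6 and interleukin-10, STAT5A and STAT5B downstream of colony-stimulating factors, STAT6 downstream of interleukin-4, and STAT2 as a part of ISGF3, the complex formed after type I interferon. SOCS proteins and CIS, encoded by Cish, are induced by STATs and dampen the same receptors, which makes their transcripts a readout of the signal as well as a brake on it.

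STAT pairs bind the palindrome TTCNNNGAA and ISGF3 binds the interferon-stimulated response element, searched here as GAAA, any 2 bases, GAAA. Both were searched on both strands in the RefSeq promoter windows of the members (GRCm38.p6, 250 bases before to 50 after each annotated start). All 9 members matched, with 11 windows in all. Windows are printed for the 4 members that hold a match, as the places where such factors could bind the genes whose levels follow, and capitals mark the match. They lie at chr11:117969317-117969616 (minus strand) for Socs3, chr9:107296409-107296708 (plus strand) for Cish, chr10:128270248-128270547 (plus strand) for Stat2 and chr16:10785487-10785786 (minus strand) for Socs1.
Socs3: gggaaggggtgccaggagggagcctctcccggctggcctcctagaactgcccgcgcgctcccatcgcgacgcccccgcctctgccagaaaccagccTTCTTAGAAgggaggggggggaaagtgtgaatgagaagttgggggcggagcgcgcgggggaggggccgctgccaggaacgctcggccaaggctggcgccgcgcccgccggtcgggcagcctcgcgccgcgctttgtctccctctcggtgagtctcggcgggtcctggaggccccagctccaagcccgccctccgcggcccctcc
Cish: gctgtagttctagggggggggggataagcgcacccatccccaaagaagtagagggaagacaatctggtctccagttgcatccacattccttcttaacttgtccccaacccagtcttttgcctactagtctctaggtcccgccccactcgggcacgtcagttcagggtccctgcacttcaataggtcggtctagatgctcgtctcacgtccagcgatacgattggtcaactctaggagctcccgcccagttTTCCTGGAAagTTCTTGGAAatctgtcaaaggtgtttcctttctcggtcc
Stat2: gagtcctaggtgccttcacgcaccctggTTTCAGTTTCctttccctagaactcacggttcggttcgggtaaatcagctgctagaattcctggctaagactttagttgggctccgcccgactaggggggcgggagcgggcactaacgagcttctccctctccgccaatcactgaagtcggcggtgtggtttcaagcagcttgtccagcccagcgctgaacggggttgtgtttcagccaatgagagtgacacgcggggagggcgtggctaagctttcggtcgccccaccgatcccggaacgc
Socs1: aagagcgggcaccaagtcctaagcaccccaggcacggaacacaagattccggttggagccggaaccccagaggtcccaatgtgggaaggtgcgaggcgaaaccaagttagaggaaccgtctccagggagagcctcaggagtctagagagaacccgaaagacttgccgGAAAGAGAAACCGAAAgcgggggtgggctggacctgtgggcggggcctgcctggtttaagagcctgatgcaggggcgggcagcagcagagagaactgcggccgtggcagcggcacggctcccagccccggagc

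With the start site as base 0, the palindrome stood at bases -154 to -146 of the Socs3 window and at bases 0 to 8 and 11 to 19 of the Cish window. At least 1 such match was found in 8.3% of all 32851 windows, and more than 1 in 0.457%. The interferon-type repeat stood at bases -222 to -213 of the Stat2 window, on the opposite strand, and at bases -83 to -74 and -77 to -68 of the Socs1 window, where the matches overlap. This repeat was found in 3.44% of all windows. The matches are a description of sequence. Windows of Stat3, Stat5a, Stat5b, Stat6 and Jak2 held neither string of letters.

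The libraries held 395283 to 1203597 reads on genes (median 820587.5), the fewest in the graft library of mouse 4. Levels are given as CPM, read counts divided by the library size after TMM scaling, in which 3 reads, the limit that a count of 0 allows, correspond to 2.34 to 8.73 CPM. The 8 microglia and macrophage markers, Cx3cr1, Csf1r and P2ry12 among them, were detected in each group and summed to 16700-31000 CPM in graft and 26900-38800 CPM in host libraries. The list of 5 monocyte markers summed to 742-1660 CPM in graft cells after LPS, to 146-276 CPM in unchallenged graft cells and to 4.52-23.2 CPM in host libraries, in spite of the gate against Ly6C. The 7 neutrophil markers summed to 25.2-463 CPM in graft and 0-8.38 CPM in host libraries, with Mpo and Cxcr2 at 0 in unchallenged graft cells and Elane, Mpo, Ngp and Mmp8 at 0 in unchallenged host cells. The 5 astrocyte markers summed to 11.6-40 CPM in graft and 149-302 CPM in host libraries. Gfap was at 0 in unchallenged graft and challenged host cells and Aqp4 in challenged graft cells. Only 1 of the 5 had enough reads to be tested between graft and host. Red blood cell markers were highest in the graft cells of mouse 4 (6860 CPM) and mouse 8 (4870 CPM), and results are also given without these mice where that changed a call or a direction. These lists move with population or challenge, and their part in the results below was not tested.

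Socs3 was the only member called in the test of a difference between the LPS responses of the populations. SOCS3 binds the receptor subunit gp130 and limits interleukin-6 signalling through STAT3. In the table, Socs3 (NM_007707) is at chr11:117827401-117830680 of NCBI37 (mm9), minus strand. Unchallenged graft libraries held 171, 148, 121 and 106 CPM in mice 5 to 8, against 476, 502, 480 and 617 CPM in the host libraries of the same mice. After LPS, mice 1 to 4 held 1600, 2140, 998 and 1530 CPM in graft cells and 1570, 1930, 957 and 1070 CPM in host cells. The order of the groups was thus graft control, host control and then both LPS groups, which overlapped each other and stood above every unchallenged library. Libraries of unchallenged cells without overlap and lower in the graft were found for 13.7% of genes.

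Without challenge, Socs3 was 136.3 ± 29 CPM in graft cells and 518.7 ± 66.5 CPM in host microglia (SD, n = 4 each), a log2 fold change of -1.90 (SE 0.153, edgeR adjusted p = 2.78e-10). A gene was called changed when its log2 fold change exceeded 1 in size and its edgeR adjusted p over all genes tested was below 0.05. Of the 7 members that passed the low-count filter in this comparison, Socs3 alone was called, in the lower direction, against 4.73% of all 8042 genes tested (11% in either direction and 6.25% higher). After LPS the levels were 1569 ± 469 CPM in graft and 1382 ± 452 CPM in host cells, a log2 difference of 0.19 (SE 0.252, edgeR adjusted p = 0.687) with an interval of -0.312 to 0.695 at 2 standard errors either side. This interval does not reach 2-fold in either direction. After LPS 0 of 9 members tested were called with edgeR, 1 of them, Stat2, had an unadjusted p below 0.05, DESeq2 called 0, and the background was 11.1% of 7843 genes (6.73% higher and 4.34% lower). In bulk libraries, fewer cells of a type and less RNA per cell cannot be told apart, so these values are averages over each sorted population.

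Socs3 rose 11.4-fold with LPS in graft cells (log2 fold change 3.52, SE 0.243, edgeR adjusted p = 9.26e-10) and 2.66-fold in host microglia (1.41, SE 0.191, edgeR adjusted p = 3.82e-06). The difference of these responses was 2.10 on the log2 scale (SE 0.315, edgeR adjusted p = 9.41e-05), so that the graft response was 4.28-fold that of the host. Socs3 was 1 of 9 members called in the test of that difference, against 2.45% of 8847 genes in the same direction (2.5% lower, 4.95% in either). All comparisons here draw on the same 4 groups, so the low graft control level enters the graft response, the difference of responses and the comparison without challenge alike. The calls of Socs3 held without each library in turn, where the difference of responses was 1.93 to 2.30, and without mice 4 and 8 together, where it was 1.85.

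Because both populations came from each brain, they were also set side by side within mice. Without challenge, graft Socs3 was 0.359, 0.294, 0.251 and 0.171 of the host level in mice 5 to 8, a mean log2 ratio of -1.94 ± 0.451 (SD, n = 4 mice), with 0 of 4 mice higher in the graft. After LPS it was 1.02, 1.11, 1.04 and 1.43 of the host level in mice 1 to 4, a mean log2 ratio of 0.188 ± 0.224 (SD, n = 4 mice), with 4 of 4 mice slightly higher in the graft. Among challenged mice, mouse 2 was the highest and mouse 3 the lowest in both populations.

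**Figure D1:**
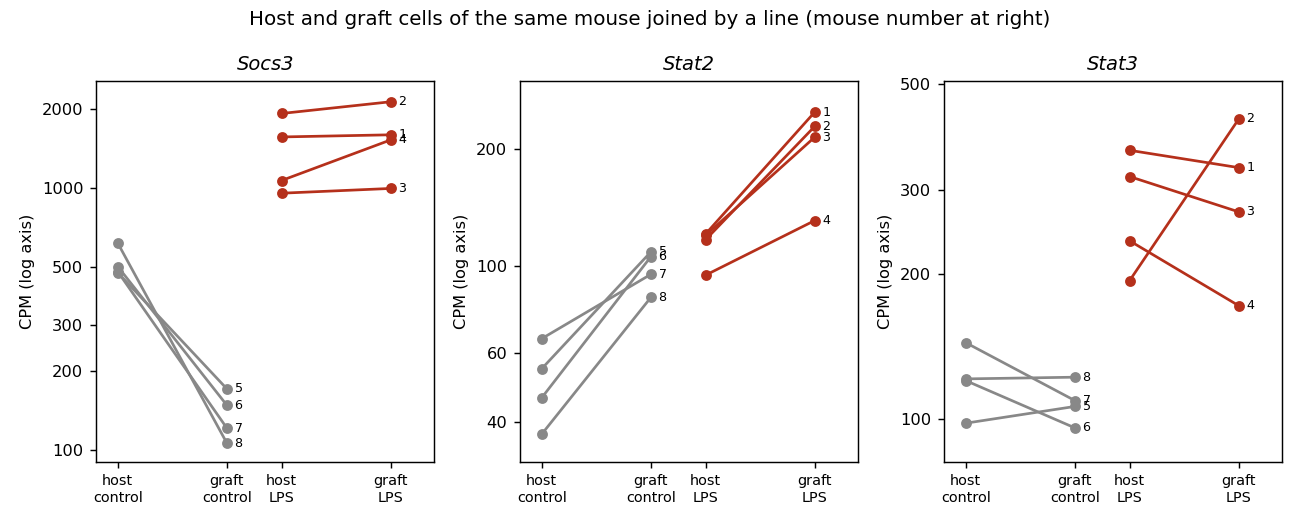
Level of Socs3, Stat2 and Stat3 in CPM (log axis) in host and graft cells, with a line joining both libraries of a mouse (grey, unchallenged mice 5 to 8; red, LPS mice 1 to 4; mouse numbers at the right of each line). Socs3 lines fall steeply from host to graft without challenge (mean log2 ratio -1.94) and are nearly flat after LPS (0.188), Stat2 lines rise in all 8 mice, and Stat3 lines go either way.

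Stat2 was higher in graft cells than in host microglia with and without challenge, and rose with LPS in both. STAT2 is the subunit of ISGF3 that is particular to interferon signalling, and its gene (NM_019963) is at chr10:127707632-127729905, plus strand. Its level in mice 5 to 8 was 109, 106, 95.5 and 83.4 CPM in graft and 54.8, 46.2, 65.4 and 37.3 CPM in host libraries. In challenged mice 1 to 4 it was 248, 228, 214 and 131 CPM in graft and 121, 117, 120 and 95 CPM in host libraries. Graft and host libraries did not overlap in either condition, as was so in that direction for 12.7% of genes without challenge and 10.5% after LPS, and the unchallenged graft libraries overlapped with the challenged host libraries.

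The graft minus host difference of Stat2 was 0.96 on the log2 scale without challenge (SE 0.178, edgeR adjusted p = 0.000153) and 0.89 after LPS (SE 0.203, edgeR adjusted p = 0.0048), below the 2-fold limit in each case. It passed that limit without challenge when the graft library of mouse 8 (1.02) or the host library of mouse 7 (1.13) was left out, and after LPS when the graft library of mouse 4 was left out (1.04). At any fold, 13.6% of genes without challenge and 9.52% after LPS had an adjusted p below 0.05 and were higher in the graft. With LPS, Stat2 rose 2.11-fold in graft cells (log2 fold change 1.08, SE 0.198, edgeR adjusted p = 0.000215) and 2.21-fold in host microglia (1.14, SE 0.188, edgeR adjusted p = 4.6e-05). The graft value lies close to the limit, at 0.99 without the graft LPS library of mouse 1. The difference of the responses was -0.0682 (SE 0.263, edgeR adjusted p = 0.927), with an interval of -0.595 to 0.458.

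Stat3 rose with LPS in both populations and did not separate them. STAT3 carries the interleukin-6 and interleukin-10 signals, and its gene (NM_011486) is at chr11:100748120-100800854, minus strand. In mice 5 to 8 it was 106, 95.6, 109 and 122 CPM in graft and 97.8, 120, 144 and 121 CPM in host libraries. In challenged mice 1 to 4 it was 334, 422, 270 and 172 CPM in graft and 363, 194, 320 and 235 CPM in host libraries. All challenged libraries stood above all unchallenged ones, as was so for 17.4% of genes in graft and 17% in host cells, while graft and host overlapped in both conditions.

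The rise of Stat3 was 2.8-fold in graft cells (log2 fold change 1.49, SE 0.224, edgeR adjusted p = 2.65e-05) and 2.27-fold in host microglia (1.19, SE 0.187, edgeR adjusted p = 2.72e-05), with a difference of responses of 0.29 (SE 0.314, edgeR adjusted p = 0.673). Graft and host levels differed by -0.17 without challenge (SE 0.142, edgeR adjusted p = 0.431) and by 0.13 after LPS (SE 0.259, edgeR adjusted p = 0.811), and the interval of the latter, -0.389 to 0.649, does not reach 2-fold. Socs3, Stat3 and Stat2 were the 3 members called higher with LPS in each population, of 8 tested in each. The background was 10.2% of 7609 genes in graft cells and 7.66% of 8238 genes in host microglia, with 11.3% and 10.4% called lower and 21.5% and 18% in either direction, while 0 members were called lower.

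**Figure D2:**
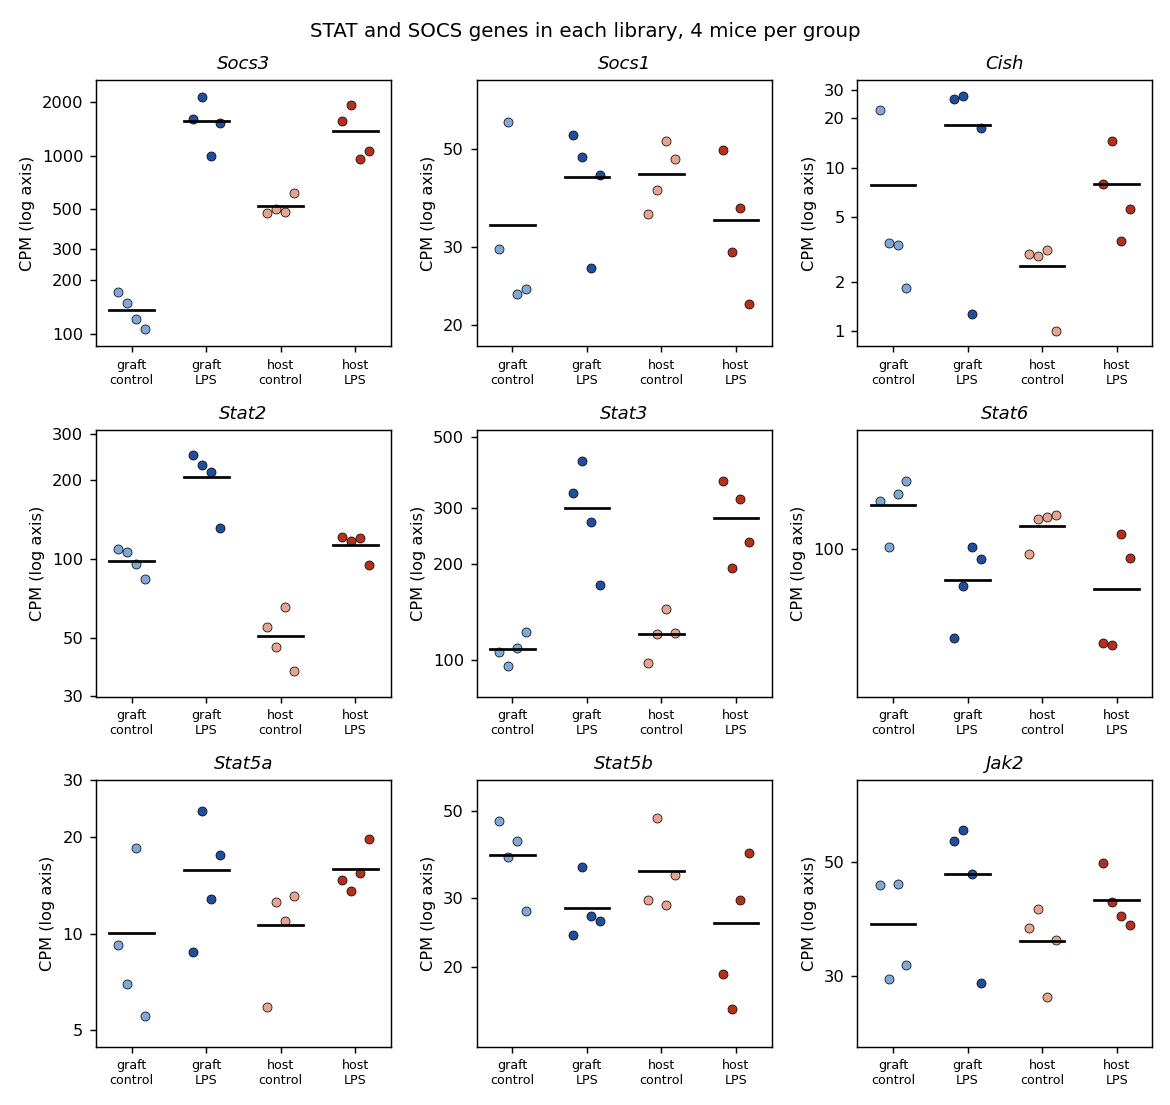
Level of each of the 9 genes in CPM (log axis, scaled for each gene) in every library, 4 libraries per group, with bars at the group means. Socs3, Stat2 and Stat3 are separated by LPS in both populations, Socs3 and Stat2 are separated by population without challenge, and the libraries of Socs1, Stat5b and Jak2 overlap in every comparison.

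Stat6 was slightly lower after LPS in graft cells, by less than 2-fold and at the edge of the test. STAT6 is the factor of the interleukin-4 and interleukin-13 response, and its gene (NM_009284) is at chr10:127080042-127098043, plus strand. The ends of Stat6 and of its neighbour Nab2 on the opposite strand overlap by 69 bases, and the counting used strand. Levels were 123, 101, 127 and 134 CPM in unchallenged graft libraries and 68, 85.3, 101 and 96 CPM after LPS. In host libraries they were 97.8, 114, 115 and 116 CPM without and 66.6, 66.1, 107 and 96.4 CPM with LPS. The groups overlapped in the host, and in the graft they met at 101 CPM. The log2 fold change was -0.48 in graft cells (SE 0.184, edgeR adjusted p = 0.0457), which missed 0.05 under RLE size factors (0.0516), DESeq2 (0.084), no filter (0.137) and without mice 4 and 8 (0.0619). It also missed 0.05, at up to 0.18, in 5 of 8 fits that each left out 1 library, those of unchallenged mice 5, 7 and 8 and challenged mice 1 and 2. In host microglia it was -0.42 (SE 0.179, edgeR adjusted p = 0.067). At any fold, 19.3% of genes had an adjusted p below 0.05 and were lower with LPS in graft cells.

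Stat5a and Stat5b encode near-identical proteins that carry signals of colony-stimulating factors, and only uniquely mapped reads were counted, so reads shared by these paralogs would be lost. Stat5a (NM_001164062, chr11:100721798-100746483, plus strand) lies 1637 bases from Stat3 on the other strand and 37914 bases from Stat5b (NM_011489, chr11:100642045-100683884, minus strand). Stat5a rested on 3 to 20 reads per library. It was 5.56-18.4 CPM in unchallenged graft, 8.78-24 CPM in challenged graft, 5.93-13.1 CPM in unchallenged host and 13.6-19.6 CPM in challenged host libraries. The host libraries did not overlap between conditions, as was so for 17% of genes in that direction, and the log2 fold change was 0.50 (SE 0.311, edgeR adjusted p = 0.211). In graft cells Stat5a was below the filter with LPS, and the difference of mean log2(CPM + 1) was 0.648 (two-sided exact permutation p = 0.23, n = 4 per group).

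Stat5b was 27.8-47.1 CPM in unchallenged and 24.1-36 CPM in challenged graft libraries, and 28.8-48.1 CPM and 15.6-39.1 CPM in host libraries. Its log2 fold change with LPS was -0.46 in graft cells (SE 0.265, edgeR adjusted p = 0.176) and -0.49 in host microglia (SE 0.269, edgeR adjusted p = 0.153). Neither passed the test. Of these 3 neighbouring genes, Stat3 was called with LPS, Stat5b was not, and Stat5a was not called where it was tested. The differences between the 3 genes were not tested.

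Socs1 encodes an inhibitor that binds JAK proteins directly and restrains interferon signalling, and its gene (NM_001271603) is at chr16:10783902-10785629, minus strand. Its levels were 29.7, 57.4, 23.5 and 24.1 CPM in the graft libraries of mice 5 to 8 and 53.8, 48, 26.9 and 43.7 CPM in those of mice 1 to 4. Host libraries held 35.6, 40.4, 52.2 and 47.4 CPM without and 49.7, 29.2, 36.8 and 22.3 CPM with LPS. All neighbouring groups overlapped. The response was 0.38 in graft cells (SE 0.305, edgeR adjusted p = 0.348) and -0.36 in host microglia (SE 0.23, edgeR adjusted p = 0.226), and the difference of responses was 0.73 (SE 0.397, edgeR adjusted p = 0.326). Its interval, -0.0669 to 1.52, spans 0 and more than 2-fold.

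Cish encodes CIS, an inhibitor induced by STAT5 that acts at cytokine receptors, and its gene (NM_009895) is at chr9:107199020-107204292, plus strand. It was the member with the fewest reads, 1 to 24 per library. Unchallenged graft libraries held 22.5, 3.48, 3.35 and 1.85 CPM and unchallenged host libraries 2.96, 2.89, 3.12 and 1.01 CPM in mice 5 to 8, where the host values stand on 1 to 4 reads. In mice 1 to 4 the challenged graft libraries held 26.3, 27.6, 1.28 and 17.5 CPM and the host libraries 7.9, 14.6, 3.56 and 5.59 CPM. The graft groups were each split by 1 library, mouse 5 without and mouse 3 with LPS.

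In host microglia, where Cish was below the filter, the challenged libraries lay narrowly above the unchallenged ones, from 3.56 CPM against up to 3.12 CPM. Libraries without overlap in that direction were found for 17% of genes tested. The difference of mean log2(CPM + 1) was 1.26 (two-sided exact permutation p = 0.029, n = 4 per group, the smallest that 4 against 4 can give and not adjusted for the other genes). With no filter, edgeR called Cish in host microglia, at 1.68 (SE 0.603, edgeR adjusted p = 0.0254). In graft cells the response was 0.96 (SE 0.632, edgeR adjusted p = 0.242). After LPS, graft exceeded host by 1.16 (SE 0.553, edgeR adjusted p = 0.177), with an interval of 0.0589 to 2.27, and it was called with 1.60 (edgeR adjusted p = 0.0133) without the graft library of mouse 3. Without challenge the graft minus host difference was 0.84 on the log2(CPM + 1) scale (two-sided exact permutation p = 0.31, n = 4 per group). The counts are too low to settle the order of these groups.

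Jak2, the kinase on interferon-gamma and colony-stimulating factor receptors, is at chr19:29326293-29387570, plus strand (NM_008413). It was 29.6-45.2 CPM in unchallenged and 29.1-57.7 CPM in challenged graft libraries, and 27.3-40.4 CPM and 37.7-49.7 CPM in host libraries. The log2 fold change with LPS was 0.36 in graft cells (SE 0.251, edgeR adjusted p = 0.275) and 0.28 in host microglia (SE 0.202, edgeR adjusted p = 0.289). Graft and host differed by 0.16 without challenge (SE 0.225, edgeR adjusted p = 0.645) and by 0.23 after LPS (SE 0.228, edgeR adjusted p = 0.573). The intervals of these 4 values all lay within 2-fold, from -0.286 to 0.859.

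**Figure D3:**
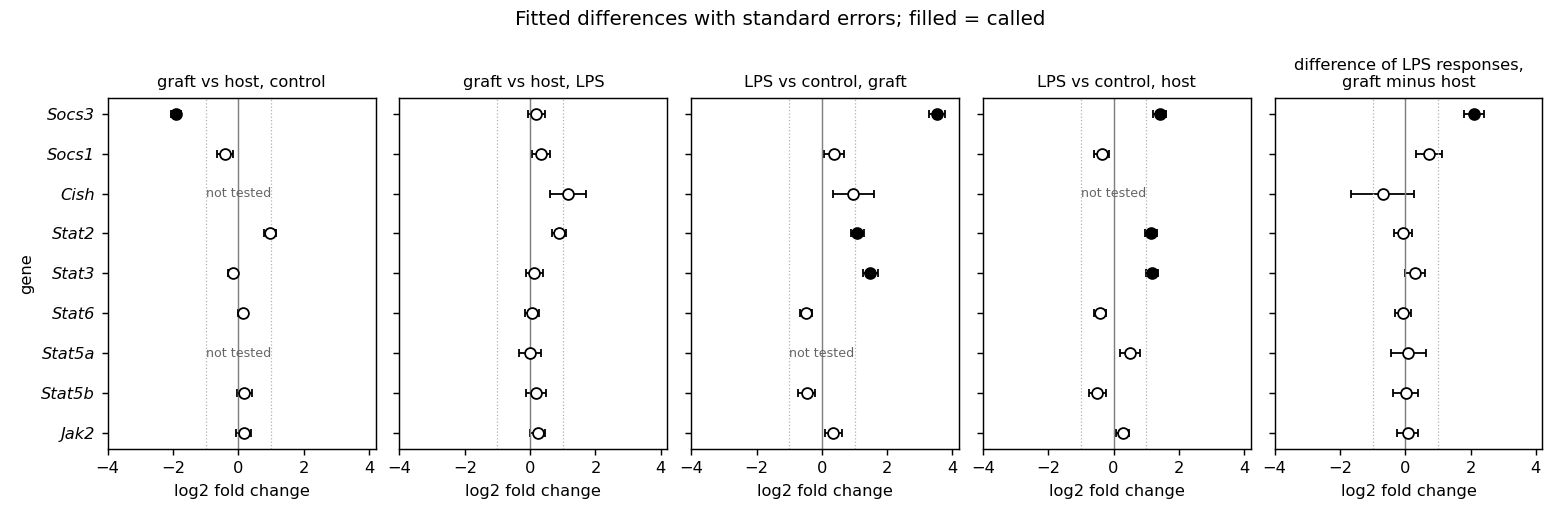
Log2 fold change of the 9 genes in the 4 pairwise comparisons and in the difference of LPS responses (graft minus host), with standard errors, from edgeR. Filled points were called, dotted lines mark 2-fold, and "not tested" marks a gene below the low-count filter. Socs3 is called in 4 of the 5 panels, from -1.90 to 3.52, and Stat2 and Stat3 only in the LPS panels.

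The rest of the pathway was read from 8 lists of 95 other genes. Of 21 listed cytokine receptors, 18 were tested in each comparison. Without challenge, Il6st, which encodes gp130, was lower in the graft at 56.99 ± 9.59 CPM against 132.3 ± 23.5 CPM (SD, n = 4 each, log2 fold change -1.21, SE 0.164, edgeR adjusted p = 2.17e-06), the same direction as Socs3. Ifnar1, a chain of the type I interferon receptor, was higher in the graft at 191.5 ± 12.4 CPM against 57.05 ± 3.52 CPM (log2 fold change 1.75, SE 0.133, edgeR adjusted p = 9.81e-11), the same direction as Stat2. The other 16 receptors tested were not called, and the background for a call in either direction was 11%. Of the 18 tested, 14 had an unadjusted p below 0.05, in both directions, so a receptor that was not called was not shown to be equal. The share of all genes under that rule was not computed, so this count is no result about the list. After LPS 0 of 18 were called between the populations by edgeR or DESeq2, and 7 had an unadjusted p below 0.05.

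With LPS, 5 receptors rose and 2 fell in each population, with medians of -0.0294 in graft and -0.0221 in host cells beside -0.0079 and 0.0132 over all genes. The background was 10.2% higher and 11.3% lower in graft and 7.66% and 10.4% in host cells. Those that rose in both were Il2rg, Il15ra, Il4ra, Csf2rb and Csf2rb2, and those that fell were Ifnar1 and Il21r in the graft and Il21r and Csf3r in the host. Il2rg, the gamma chain shared by several interleukin receptors, rose from 62.86 to 234.7 CPM in graft cells (log2 fold change 1.92, SE 0.207, edgeR adjusted p = 4.46e-07) and from 41.19 to 127.7 CPM in host microglia (1.64, SE 0.218, edgeR adjusted p = 3.06e-06). Il4ra, the interleukin-4 receptor chain upstream of STAT6, rose from 273.1 to 998.9 CPM in graft cells (log2 fold change 1.87, SE 0.182, edgeR adjusted p = 1.11e-07) and from 215.5 to 778 CPM in host microglia (1.85, SE 0.143, edgeR adjusted p = 1.37e-09). Il15ra, which presents interleukin-15, rose from 10.16 to 192.7 CPM in graft cells, where the unchallenged libraries held 3 to 9 reads, and from 18.93 to 197.4 CPM in host cells. Ifnar1 fell in graft cells to 75.77 ± 23.1 CPM, while it was 57.24 ± 2.93 CPM in host microglia after LPS (SD, n = 4 each), and its responses differed by -1.30 (SE 0.246, edgeR adjusted p = 0.00129).

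Of 15 other inhibitors of the pathway, Ptpn1, which encodes the phosphatase PTP1B, rose from 360.4 to 1112 CPM in graft cells and from 458.4 to 985.8 CPM in host microglia (log2 fold changes 1.63, SE 0.228, and 1.10, SE 0.147, edgeR adjusted p = 1.1e-05 and 3.12e-06). It was 1 of 12 tested in graft cells that rose, with 0 that fell, against 10.2% and 11.3% of all genes, so the list did not exceed the background there. In host cells 3 of 13 rose (Ptpn1, Socs2 and Ptpn11) and 1 fell (Pias3), against 7.66% and 10.4%. Socs2 held 1 to 13 reads in unchallenged host libraries and passed the filter through the challenged ones, where it was high. Ptpn11 held 6 to 17 reads there, near the limit of the filter. This count is thus no test of the list. Among the other kinases and STATs, 4 of the 5 listed were tested and 0 were called in any of the 5 comparisons by edgeR or DESeq2, with 0 to 3 at an unadjusted p below 0.05. Of the ligands, 14 were listed and 2 to 4 tested. With LPS 1 of 2 tested rose in graft cells (Osm) and 1 fell (Il15), against 10.2% and 11.3% of all genes. In host cells 3 of 4 rose (Osm, Il6 and Il12b) and 1 fell (Il15), against 7.66% and 10.4%. After LPS 1 of 3, Il12b, was lower in the graft, against 4.34%. Il15, Il6 and Il12b passed the filter through the groups where they were high. Osm, oncostatin M, a ligand that signals through gp130, rose from 60.1 to 263.6 CPM in graft cells and from 56.75 to 184.3 CPM in host microglia (edgeR adjusted p = 5.36e-07 and 4.57e-08).

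Most known targets of STAT3 rose with LPS, 8 of 11 tested in graft cells and 8 of 10 in host microglia, with 0 called lower, against 10.2% and 7.66% of all genes called higher. Their median log2 fold changes were 2.46 and 2.25, beside -0.0079 and 0.0132 over all genes. Saa3, an acute-phase serum amyloid, rose from 93.94 ± 23.9 to 22610 ± 4740 CPM in graft cells and from 69.69 ± 46.3 to 1703 ± 1100 CPM in host microglia (SD, n = 4 each), and its responses differed by 3.33 on the log2 scale (SE 0.517, edgeR adjusted p = 0.000134). Lcn2, lipocalin-2, rose 51.5-fold in graft and 15.4-fold in host cells, from different starting levels of 64.92 and 9.564 CPM. Nfil3, a transcription factor gene, went from 8.225 ± 4.82 to 152 ± 45.3 CPM in graft and from 4.936 ± 4.5 to 96.14 ± 24.9 CPM in host cells (SD, n = 4 each). Its unchallenged libraries held 3 to 15 and 0 to 11 reads, so it passed the filter through the LPS groups and its fold is uncertain. In unchallenged host libraries Lcn2 held 0 to 21 reads and Pim1 7 to 16, so there both passed through the LPS group too. Such genes could hardly be called lower, so the counts of this list are in part set by the filter. Of the 11 targets tested for a difference of responses, Saa3 was the 1 called. Stat3 itself showed no called difference between the populations, and 5 of its 11 tested targets were called higher in the graft after LPS, against 6.73% of all genes. Among these 5, Timp1 averaged 60.85 CPM in challenged graft cells and held 0 to 1 read in challenged host libraries. It passed the filter through the challenged graft libraries in this comparison and in that with LPS in graft cells, so its call could hardly go the other way. Several of the STAT3 targets, Lcn2 and Saa3 included, are expressed by other myeloid cells too. Of the 5 monocyte markers, 5 were called higher in the graft after LPS, against 6.73% of all genes. Together they summed to 4.52-20.9 CPM in challenged host libraries, so they passed the filter through the graft libraries. Such markers could hardly be called the other way, so that count is no test of the list. With LPS in graft cells 4 of the 5 were called higher and 1 lower, against 10.2% and 11.3%. Only 2 of the 5 passed the filter between graft and host without challenge, so others entered here through the challenged libraries. The part of such cells in the values of the targets was not tested.

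Some known targets of the STAT2 complex were called higher in the graft in each condition. After LPS 6 of 11 tested were higher in the graft, 0 lower and 5 not called, against 6.73% of all genes called higher. Without challenge 4 of 12 were higher and 8 not called, against 6.25%. Among these 4, Ifi44 held 2 to 10 reads in unchallenged host libraries and passed the filter through the graft libraries, where it was high. Oas2 and Oasl2, of the antiviral oligoadenylate synthetase family, were higher in the graft without challenge by 1.21 (SE 0.207, edgeR adjusted p = 5.42e-05) and 1.46 (SE 0.202, edgeR adjusted p = 2.93e-06). With LPS 6 of 13 rose in graft cells and 2 of 11 in host microglia, against 10.2% and 7.66% of all genes, with medians of 0.66 and 0.50. DESeq2 called 3 in host microglia. Irf7, an interferon-induced transcription factor, went from 168.6 ± 25.7 to 1087 ± 275 CPM in graft cells and from 79.06 ± 8.9 to 157.5 ± 35.6 CPM in host microglia (SD, n = 4 each), and its responses differed by 1.70 (SE 0.284, edgeR adjusted p = 0.000314). Isg15, an interferon-induced ubiquitin-like protein, went from 51.97 ± 1.42 to 439.7 ± 89 CPM in graft and from 50.06 ± 13.9 to 120.9 ± 78.5 CPM in host cells, with a difference of responses of 1.81 (SE 0.431, edgeR adjusted p = 0.0102). These were the 2 of 13 called in that test, against 2.45% of all genes, and DESeq2 called 3. The responses of Stat2 were not set against theirs in a test.

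Known STAT5 targets gave 1 call of 4 tested in each LPS comparison, near the 21.5% and 18% of all genes called in either direction, and DESeq2 called 2 in graft cells. All 4 had an unadjusted p below 0.05 in each population, a rule for which the share of all genes was not computed. Their medians were 0.68 in graft and 0.67 in host cells, beside -0.0079 and 0.0132 over all genes. Ccnd1, which encodes cyclin D1, fell from 251.1 to 98.02 CPM in graft cells (log2 fold change -1.36, SE 0.185, edgeR adjusted p = 8.06e-06), and Ccnd2, cyclin D2, rose from 82.09 to 227.3 CPM in host microglia (1.47, SE 0.174, edgeR adjusted p = 6.8e-07). Both moved the same way in the other population by less than 2-fold, Ccnd1 from 283.6 to 167.8 CPM in host microglia (edgeR adjusted p = 0.00441) and Ccnd2 from 110.7 to 187.7 CPM in graft cells (edgeR adjusted p = 0.0062). Their responses were not called different between the populations (edgeR adjusted p = 0.276 and 0.193). Of 11 known STAT6 targets, 2 of 7 tested rose (Chil3 and Arg1) and 2 fell (Klf4 and Mgl2) with LPS in graft cells, against 10.2% and 11.3% of all genes, and 0 of 3 were called in host microglia by edgeR or DESeq2, with 1 at an unadjusted p below 0.05. Arg1, arginase-1, went from 3.639 ± 2.61 CPM, on 1 to 4 reads, to 422.5 ± 108 CPM in graft cells, and from 1.379 ± 1.9 to 8.199 ± 3.63 CPM in host cells (SD, n = 4 each, difference of responses 4.35, SE 1.21, edgeR adjusted p = 0.0305). Klf4, a transcription factor gene, fell from 819.7 to 402.6 CPM in graft cells (log2 fold change -1.03, SE 0.211, edgeR adjusted p = 0.000641) and was 615.9 and 613.1 CPM in host cells without and with LPS. Chil3, a chitinase-like secreted protein, went from 22.66 ± 8.8 to 209 ± 78 CPM in graft cells (SD, n = 4 each), while host libraries held 0 or 1 read. Between graft and host, 3 of 5 STAT6 targets were higher and 1 lower without challenge and 4 of 6 higher and 1 lower after LPS, against 6.25% and 4.73% of all genes and then 6.73% and 4.34%. The lower gene was Egr2, a transcription factor gene, at 20.46 against 71.52 CPM without challenge and 12.89 against 43.04 CPM after LPS. Of the higher genes, Chil3 and Mgl2 without challenge and Chil3 and Arg1 after LPS passed the filter through the graft libraries, where they were high. Arg1 entered the LPS comparison in graft cells through the challenged libraries. Such genes could hardly be called in the other direction, so these counts are no test of the list. Mrc1, the mannose receptor, was 447.5 CPM in graft and 18.39 CPM in host cells without challenge (log2 fold change 4.58, SE 0.17, edgeR adjusted p = 9.94e-17). Stat6 itself was not called in any comparison.

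**Figure D4:**
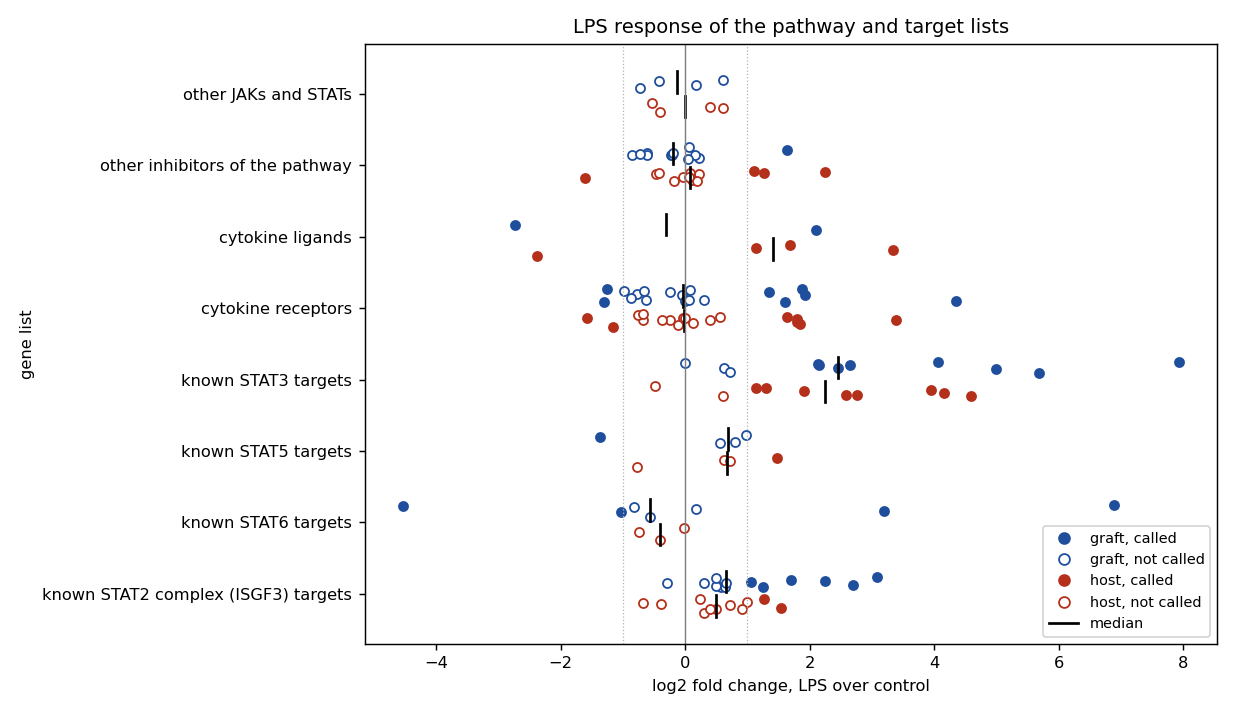
Log2 fold change with LPS of every tested gene of the 8 pathway and target lists in graft (blue) and host (red) cells, with the list medians as bars and filled points for called genes. The STAT3 targets lie mostly to the right of 2-fold in both populations (medians 2.46 and 2.25), whereas the other kinases and STATs hold 0 called genes.

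The genes whose pattern was most like that of a member were found by Pearson's r of log2 CPM over the 16 libraries, among the 3794 or 3795 other genes whose mean reached 50 CPM. The r takes in the differences between the 4 groups, which the libraries of a group share, and is a description. For Socs3 they were Ccdc115 (0.964), Mboat7 (0.951) and Pgs1 (0.946), for Stat2 Pim1 (0.967), Zbp1 (0.948) and Mmp14 (0.948), and for Stat3 Dst (0.938), Ptpn1 (0.937) and Ubp1 (0.931). The closest genes of the other members had a lower r, namely Rbm5 for Stat6 (0.884), Sbf2 for Stat5b (0.811), H2afy for Cish (0.809), Cflar for Jak2 (0.807), Nek6 for Stat5a (0.793) and Zfp622 for Socs1 (0.7).

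Pgs1 is the gene nearest to Socs3 in the table, 17491 bases away on the opposite strand. It was 64.43 ± 13.7 CPM in graft and 93.44 ± 8.48 CPM in host cells without challenge, and 258.6 ± 46.8 and 249.2 ± 33 CPM after LPS (SD, n = 4 each). Its response to LPS was 1.98 in graft cells (SE 0.202, edgeR adjusted p = 2.22e-07) and 1.42 in host microglia (SE 0.154, edgeR adjusted p = 2.01e-07), but the difference of responses, 0.56, was not called (SE 0.257, edgeR adjusted p = 0.228). Pim1, a kinase gene that is also in the list of STAT3 targets, was like Stat2 higher in the graft in both conditions, by 1.92 without (SE 0.305, edgeR adjusted p = 2.06e-05) and 1.61 with LPS (SE 0.349, edgeR adjusted p = 0.00298).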

How the data were processed

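The deposited values are raw read counts per gene, without normalization. Per the labels and methods, the authors made 3′ libraries by a derivation of MARS-seq, mapped reads to NCBI37 (mm9) with HISAT (version 0.1.5 in the submitters' processing notes, another version in the methods), kept unique reads and counted exons on the sense strand with HOMER. No step that collapses PCR copies is named in the sources used here, so limits of detection cover counting error only.

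Counts were analysed with edgeR 4.0.16 (R 4.3.3). Low-count genes were removed with filterByExpr (at least 10 reads, 15 in total), and libraries were scaled by TMM. Quasi-likelihood models were fitted (prior count 0.125) on the groups compared, with Benjamini-Hochberg adjustment over all genes tested. Standard errors come from the log2 fold change and its F statistic. The difference of responses was fitted on all 16 libraries. For members below the filter, log2(CPM + 1) was compared over all 70 splits (two-sided exact permutation test). Fits were checked on simulated counts. Replicates are separate mice, and 24 replicate pairs differed by 1.98 to 8.64 times counting noise (chi-square per degree of freedom), so no library counted as a copy of another. No batch is given in the labels.

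The labels number the mouse from which graft and host cells came, so the number pairs them. After removing group means, r between both libraries of a mouse was 0.145, 0.0172, 0.21, 0.124, 0.0242, -0.0299, 0.0472 and 0.0832 for mice 1 to 8. No term for the mouse is named in the methods, and the replicate block is an alternative. LPS and control mice differ, so that comparison has no pairs.

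Alternatives were RLE size factors, library totals, DESeq2 1.42.0, no filter, a filter of at least 10 reads in each library, a fit on all 16 libraries, the replicate block, leaving out each library, a pseudocount of 5 in place of 1 in the permutation tests and, chosen after seeing the data, leaving out mice 4 and 8. All members are named. Other genes of a list could be named if called with a mean of at least 50 CPM, up to 3 per list and comparison, and the 3 genes of highest r (log2 CPM with prior count 2) are named for each member. Csf2rb, Il21r, Csf3r, Socs2, Ptpn11, Pias3, Mgl2, Egr2, Il6, Il12b, Il15, Timp1 and Ifi44 fall outside this rule. They were named after their values were seen, to complete small counts or to give a limit of the filter. Members and lists were chosen with earlier results of these data known.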

Additional observations from a re-analysis of the deposited data

Results flagged for a closer look

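In 4 of 36 sets of 4 libraries (9 genes in 4 groups), 1 library stood apart by Dixon's test, where chance gives about 1 in 20. For Cish, the graft library of unchallenged mouse 5 held 22.5 CPM against 1.85 to 3.48 CPM in the other graft libraries, and the host library of unchallenged mouse 8 held 1.01 CPM, 1 read, against 2.89 to 3.12 CPM. For Stat2, the host library of challenged mouse 4 held 95 CPM against 117 to 121 CPM. For Stat6, the host library of unchallenged mouse 5 held 97.8 CPM against 114 to 116 CPM.

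The response to LPS differed between graft and host cells, by the edgeR test of the difference itself, for Socs3 (2.10 on the log2 scale, graft minus host), Saa3 (3.33), Arg1 (4.35), Irf7 (1.70), Isg15 (1.81) and Ifnar1 (-1.30). The value of Arg1 rests on at most 4 reads in each unchallenged library.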

How the results depend on the processing

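The calls of Socs3 and Stat3 held under every alternative run, and the replicate block changed no call of a member. With the replicate block the difference of Socs3 responses was 2.11 (main 2.10) and the graft minus host difference of Stat5a after LPS was 0.0028 (main -0.0089). That of Stat5a was also positive with RLE size factors (0.0037), DESeq2 (0.0055) and without mice 4 and 8 (0.0647). Scaling by library totals turned Stat3 (-0.0239) and Stat6 (-0.0897) after LPS and Stat5b in the difference of responses (-0.0532). Without mice 4 and 8 the differences of responses of Stat2 (0.1005), Stat5a (-0.0485) and Stat6 (0.0316) changed sign. None of these was called, and the cause was not tested. Library totals also moved the median of all genes after LPS from -0.014 to -0.16 between graft and host, and the higher share of called genes from 60.8% to 48.7%.

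With no filter 1454 genes were called between graft and host without challenge and 1352 after LPS (main 883 and 868), and Cish became 1 called member after LPS (1.17, edgeR adjusted p = 0.0354), and also a called member with LPS in host microglia, where 4 rather than 3 were called. Requiring at least 10 reads in every library tests fewer genes and called 402 and 381 there, 816 with LPS in graft (main 1636), 871 in host (main 1484) and 251 in the difference of responses (main 438). Under it Stat2 with LPS in graft cells was 0.99 and no longer past 2-fold.

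Leaving out single libraries gave 1 to 2 members called between graft and host without challenge and 0 to 1 after LPS. The graft minus host differences after LPS ranged from -0.0698 to 0.32 for Stat3, from -0.36 to 0.24 for Stat5a, from -0.0158 to 0.43 for Stat5b and from -0.0420 to 0.20 for Stat6. The differences of responses ranged from -0.23 to 0.0721 for Stat2, -0.23 to 0.54 for Stat5a, -0.18 to 0.29 for Stat5b, -0.18 to 0.0906 for Stat6, -0.95 to 0.95 for Cish and -0.0265 to 0.19 for Jak2. Depth limits Cish and Stat5a most, at 1 to 24 and 3 to 20 reads per library.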
